A study of Mus musculus with 7 samples.

Results

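In mRNA of samples labelled as CD8+ T cells, 9 genes that mark gamma delta and other innate-like T cells were followed, out of 56422 gene symbols in the table. They were taken by symbol: the delta constant gene Trdc, the gamma constant genes Trgc1, Trgc2 and Trgc4, the variable segments Trgv2 and Trdv4, the transcription factors Sox13 and Zbtb16, and the cytokine receptor Il23r. According to the labels, the cells were taken from ascites, the fluid of the abdominal cavity, in mice that model peritoneal metastasis. The 7 libraries were 4 controls, whose treatment is given as none, and 3 labelled with both propionate and butyrate, which gut bacteria make from fibre. Strain, age, dose, tumour line and the way the cells were isolated are not given. No label ties a library to an animal of its own, so the spread behind each p-value may be technical. Expression is in TPM, which corrects for transcript length and has a fixed total, so that depth is unknown and no counting interval can be given. Values below are TPM unless a sentence says log2, which means log2(TPM + 1), a scale that understates the change of low genes.

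Gamma delta T cells carry a receptor made of a gamma and a delta chain in place of the alpha and beta chains of conventional CD8+ T cells, and both kinds of cell carry the same CD3 signalling chains. Gamma segments are joined to the constant gene of their own cluster in the locus: Trgv4, Trgv5, Trgv6 and Trgv7 to Trgc1, Trgv2 to Trgc2 and Trgv1 to Trgc4. Some gamma delta cells, above all those with a Trgv6 and Trdv4 receptor, settle in tissues in early life, carry the interleukin 23 receptor and make interleukin 17. Rearranged gamma genes can also be transcribed in alpha beta T cells, whereas the delta locus lies inside the alpha locus and is cut out when the alpha chain is joined. PLZF, encoded by Zbtb16, is the factor of innate-like T cells such as NKT cells.

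The gamma constant genes are copies of each other, which bears on how their reads can be told apart. The first 150 of the 330 coding bases of their first exon are shown, from the GENCODE M21 transcripts (GRCm38), where the genes are named Tcrg-C1, Tcrg-C2 and Tcrg-C4. Capitals mark bases that differ from Trgc1 at the same place.
Trgc1: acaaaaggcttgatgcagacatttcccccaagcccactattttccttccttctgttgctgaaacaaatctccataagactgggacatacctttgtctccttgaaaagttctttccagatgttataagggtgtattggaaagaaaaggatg
Trgc2: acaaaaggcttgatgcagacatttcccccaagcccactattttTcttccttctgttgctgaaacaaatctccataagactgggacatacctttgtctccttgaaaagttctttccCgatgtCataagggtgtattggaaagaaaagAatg
Trgc4: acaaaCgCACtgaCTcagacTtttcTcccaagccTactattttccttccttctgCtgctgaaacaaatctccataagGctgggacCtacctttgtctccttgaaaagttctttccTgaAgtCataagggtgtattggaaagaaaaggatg
Over the whole first exon Trgc2 differed from Trgc1 at 9 bases (97.3% identity) and Trgc4 at 59 (82.1%). Of the 865 windows of 50 bases in the Trgc2 transcript, 157 were also in Trgc1, and 0 of the 936 in Trgc4 were in either of the others. Reads shared between Trgc1 and Trgc2 are therefore uncertain in these values, while Trgc4 had no window of that length in common with them. In the order of the RefSeq annotation (GRCm38.p6), Trgv4, Trgv6 and Trgv5 lie before Trgc1, Trgc2 and Trgv2 lie on either side of Trgj2, and Trgv1 and Trgc4 on either side of Trgj4.

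Libraries of both groups held much RNA of other cells, and CD3 and CD8 transcripts rose with treatment. Cd3e, a CD3 chain, was at 5.47 to 13.1 in control libraries and at 43.2 to 173 in treated ones, and Cd8a at 7.95 to 18.0 and at 54.3 to 242. Apoe, a macrophage transcript, was at 3741 to 8468 and at 1417 to 2316. The third treated library had 32.9% of its TPM on mitochondrially encoded genes, against 13.6% to 18.2% in the other 6. A further 18.4% lay on mitochondrial-like pseudogenes, against 8.15% to 10.6%. As TPM has a fixed total, other genes read lower in that library. Its median-of-ratios scaling factor was 0.686, against 0.992 to 1.13 in the other 6. Control replicate 3 had the highest macrophage marker sum (14840, against 6126 to 6964 in the other controls and 3331 to 4065 in treated libraries) and the highest neutrophil sum (424), and its Cd3e was the lowest of all. In bulk RNA, fewer cells of a type and less RNA per cell cannot be told apart.

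With treatment 3 of the 9 genes were called higher. The 4 members that could be tested all belong to the gamma locus, so no other member could be called. Trgc2 was the most abundant member. Its control values were 6.87, 3.29, 1.55 and 3.06 in replicates 1 to 4, and its treated values were 13.4, 35.7 and 13.8 in replicates 1 and 2 and the third library. Every treated library lay above every control library. The means were 3.69 ± 2.25 (SD, n = 4) and 21.0 ± 12.8 (SD, n = 3), and treated libraries were higher by 2.20 on the log2 scale (SE 0.37, limma adjusted p = 0.00208 by Benjamini-Hochberg over 14967 genes).

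Trgv2, the variable segment that joins to Trgc2, moved with it. It was at 3.10, 1.08, 0.93 and 2.26 in control replicates 1 to 4 and at 8.34, 23.8 and 10.2 in the treated libraries, again without overlap. The log2 fold change was 2.34 (SE 0.34, limma adjusted p = 0.000874). For every 100 TPM of Trgc2 there were 32.8 to 73.9 TPM of Trgv2 in control libraries and 62.3 to 73.8 in treated ones. The control range is the wider, and the treated libraries all lie inside it.

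Trgc4, the constant gene to which Trgv1 joins, was at 0.80, 0.58, 1.02 and 0.44 in control replicates 1 to 4 and at 5.56, 6.65 and 2.52 in the treated libraries. The groups did not overlap, and the log2 fold change was 1.73 (SE 0.28, limma adjusted p = 0.00151). The expression filter asked for 3 libraries at 1 TPM or more, and Trgc4 could pass it through the treated libraries alone, with control replicate 3 also above 1. Trgv1 itself was at 0.85 in the third treated library and 2.44 in treated replicate 2, and listed at 0 in treated replicate 1. Its controls were at 0.52 in replicate 1 and 0.66 in replicate 3 and listed at 0 in replicates 2 and 4, so the groups overlapped.

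Trgc1, the constant gene to which Trgv4 to Trgv7 join, did not pass the test. It was at 0.70, 0.27, 2.95 and 1.07 in control replicates 1 to 4 and at 3.91, 3.93 and 1.22 in the treated libraries. Control replicate 3 lay above the third treated library, so the groups overlapped. The log2 fold change was 0.88 (SE 0.37, limma adjusted p = 0.128). Without control replicate 3 it was 1.20, with an adjusted p of 0.0113.

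Of the 9 members, 4 passed the filter and were tested, 3 were called higher and 0 lower, where 4.3% of all tested genes were called higher and 7.59% lower. By limma's unadjusted p under 0.05, 4 were higher and 0 lower. Treated libraries lay above all controls for 3 of the 9 members and for 4.82% of tested genes, and below all controls for 0 members and 25.7% of tested genes. The 3 calls were lost when no filter was applied and 29687 genes were tested (limma adjusted p = 0.0801 for Trgc2, 0.0709 for Trgv2 and 0.0709 for Trgc4), a setting in which 3 genes in all were called higher. With a pseudocount of 5 in place of 1 the calls held, and the log2 fold changes of Trgc4 and Trgv2 were 0.77 and 1.41.

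**Figure D1:**
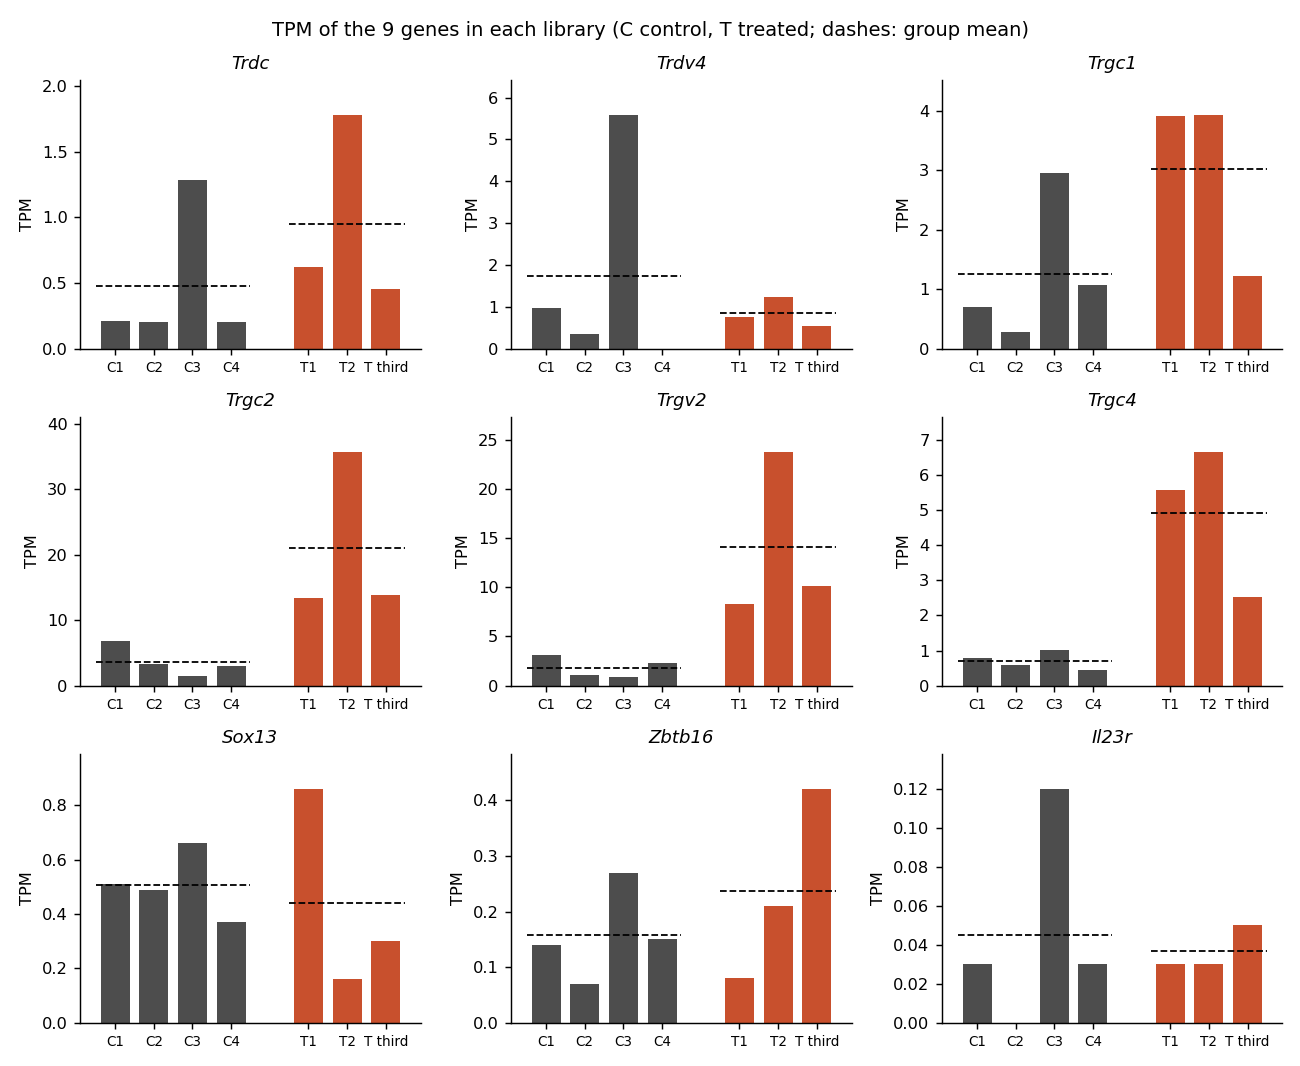
TPM (vertical axis, a scale of its own in each panel) of the 9 genes in control replicates 1 to 4 (C1 to C4, grey) and in treated replicates 1 and 2 and the third treated library (red), with dashes at the group means. Treated libraries exceed all controls for Trgc2, Trgv2 and Trgc4, and Trdv4 is highest in control replicate 3 at 5.59.

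The delta chain genes were too low to be tested. Trdc, the only delta constant gene, was at 0.21, 0.20, 1.28 and 0.20 in control replicates 1 to 4 and at 0.62, 1.78 and 0.45 in the treated libraries. It reached 1 in 2 of the 7 libraries, so it was below the filter and not tested. Control replicate 3 exceeded 2 of the 3 treated libraries, while the other 3 controls lay below all treated libraries. With no filter the log2 fold change was 0.40 (SE 0.31, limma adjusted p = 0.514). The Trdc transcript is 3865 bases long in GENCODE M21, of which 458 are coding, against 914 to 985 bases for the gamma constant genes, so that the same number of reads gives it a lower TPM.

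Trdv4, a delta variable segment, was highest in a control. It was at 0.98, 0.35, 5.59 and 0.00 in control replicates 1 to 4 and at 0.75, 1.23 and 0.54 in the treated libraries. The controls spanned all treated values. It too was below the filter, and without a filter its log2 fold change was -0.17 (SE 0.60, limma adjusted p = 0.894).

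The library that was high in Trdv4 was high in related genes. In control replicate 3, Trgv6, named after its values were seen, was at 3.91, against 0 to 0.56 in the other 3 controls and 0 to 1.18 in treated libraries. Il17a, which encodes interleukin 17A, was at 2.94 there, against 0 to 0.13 in the other controls and 0 to 0.37 in treated libraries. Trgc1, the constant gene to which Trgv6 joins, was also the highest among controls in that library, while Trgc2 was the lowest of all 7. Trgv6 made up 71.1% of the TPM of the 7 Trgv genes in control replicate 3 and Trgv2 16.9%, whereas Trgv2 made up 65.9% to 100% in the other controls and 74.2% to 78.1% in treated libraries. In the same library neutrophil and macrophage markers were at their highest, and their part in these values was not tested.

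Trgv4, another segment joined to Trgc1 and likewise named after its values were seen, was found in the treated libraries. It was listed at 0 in all 4 controls and was at 1.66, 4.08 and 1.49 in the treated libraries. It passed the filter through the treated libraries only, so that its call (limma adjusted p = 0.00138) follows in part from the filter. It made up 11.4% to 14.8% of Trgv TPM in treated libraries. All Trgv genes together held 1.64 to 5.50 TPM in controls and 11.2 to 32.0 in treated libraries. Whether the lower total has a part in the values of 0 in controls was not tested. Relative to the CD3 chains Trgv4 differed by -1.16 (limma adjusted p = 0.0719). The sign of this value depends on the pseudocount. Without one, the ratio of Trgv4 to a CD3 chain was 0 in all controls and above 0 in all treated libraries.

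Besides the members, 30 symbols of gamma and delta segments were in the table. Of the 20 that belong to the gamma or delta loci alone, 10 were listed at 0 in every library, among them all 8 joining and diversity segments. The remaining 10 symbols are dual segments, which can join to alpha or delta and cannot be assigned to either chain here. Of these 4 were tested, and all 4 were called higher, where 4.3% of all tested genes were. For Trav21-dv12, named after its values were seen, the groups overlapped, with 1.28 in control replicate 4 and 0.48 in the third treated library (limma adjusted p = 0.0455). The segments with the highest means were Trav14d-3-dv8, Trav6-7-dv9 and Trav4-4-dv10. Trav14d-3-dv8 was at 0.32 to 1.53 in controls and 7.21 to 9.66 in treated libraries, higher by 2.48 on the log2 scale (limma adjusted p = 0.000247). Trav6-7-dv9 passed the filter through treated libraries only, at 3.45 to 6.96, and Trav4-4-dv10 was listed at 0 in 3 controls and at 1.27 in control replicate 4, against 1.89 to 3.81 in treated libraries.

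**Figure D2:**
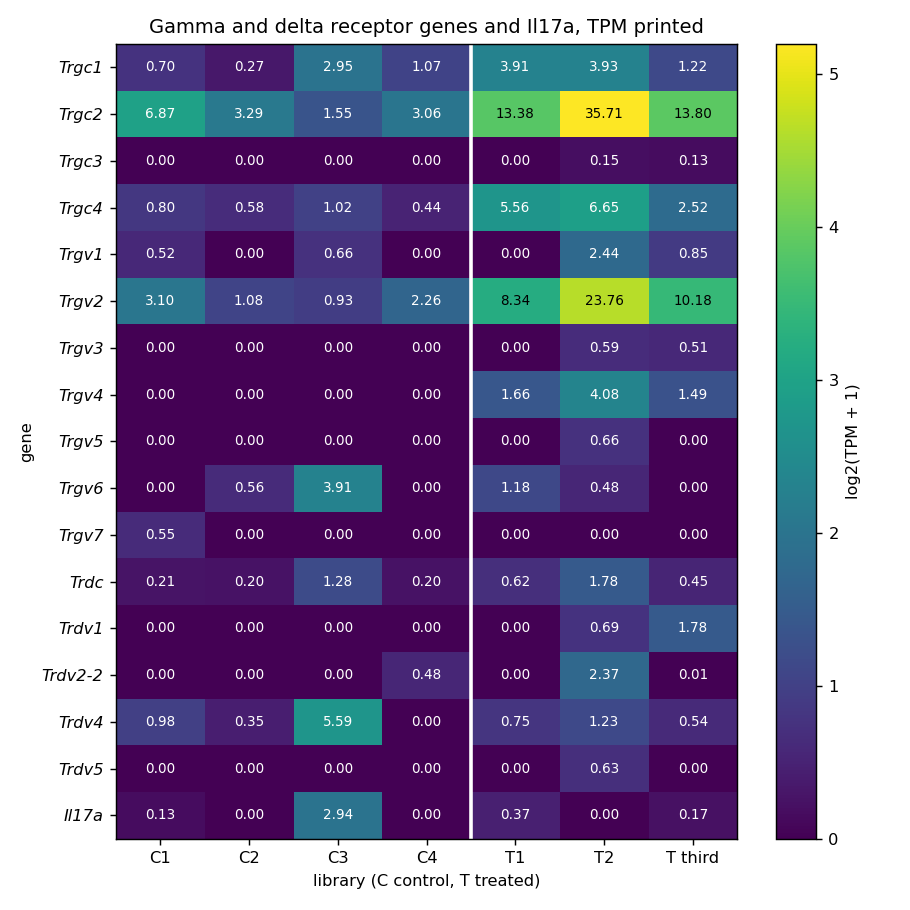
TPM of gamma and delta receptor genes and of Il17a (rows) in each library (columns, C control, T treated, white line between the groups), printed in the cells and coloured by log2(TPM + 1). Trgc2 and Trgv2 are brightest in treated libraries, and Trgv6, Trdv4 and Il17a are highest in control replicate 3 at 3.91, 5.59 and 2.94.

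Because the CD3 chains were higher in all treated libraries, the members were also set against the CD3 chains. Subtracting the mean log2 level of Cd3d, Cd3e and Cd3g in each library from every gene gave log2 differences of -0.66 for Trgc2 (95% interval -1.78 to 0.47), -0.51 for Trgv2 (-1.66 to 0.64) and -1.13 for Trgc4 (-2.33 to 0.08). None of these 3 passed the test, with limma adjusted p values of 0.254, 0.384 and 0.0674, and the intervals leave room for falls of more than 1 on the log2 scale. Trgc1 was lower relative to the CD3 chains, by -1.97 (SE 0.62, limma adjusted p = 0.00146). Thus 1 of 4 tested members was called lower on this scale, where 98.1% of all tested genes were, since most genes in these libraries did not rise with the CD3 chains. Trac, the alpha chain constant gene, had a difference of -0.46 (limma adjusted p = 0.406). With a pseudocount of 5, Trgc4 and Trgv2 were called lower too (-1.74 and -1.10), and Trgc4 also with median-of-ratios scaling (-1.22) and without a variance trend. With a pseudocount of 0.1, Trgc4 and Trgv2 were at -0.38 and -0.08 (limma adjusted p = 0.608 and 0.894). Trgc1 was then at -1.50 (limma adjusted p = 0.0455). The differences of these low genes thus depend on the pseudocount.

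**Figure D3:**
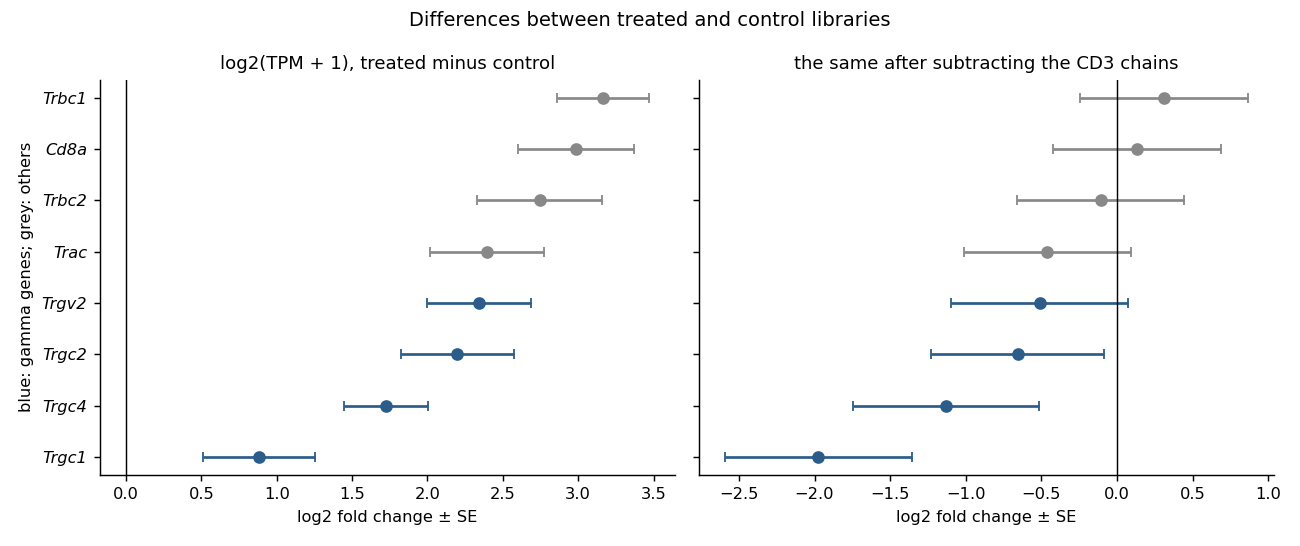
Log2 fold changes with their standard errors (horizontal axis) of the 4 tested gamma genes (blue) and of 4 alpha beta and CD8 genes (grey), as measured (left) and after subtracting the CD3 chains (right). On the left Trgc2 and Trgv2, at 2.20 and 2.34, lie near Trac at 2.39, and on the right Trgc1 lies farthest below 0 at -1.97.

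Per 100 TPM of Cd3e, Trgc2 was at 52.6, 27.6, 28.3 and 26.4 TPM in control replicates 1 to 4 and at 17.8, 20.7 and 32.0 in the treated libraries. The groups overlapped, and control replicate 1 was the highest. Trgc1, on this measure without a pseudocount, was at 5.36, 2.27, 53.9 and 9.22 in controls and at 5.19, 2.28 and 2.83 in treated libraries, which lay inside the control range. Trdc was at 1.61, 1.68, 23.4 and 1.72 TPM per 100 TPM of Cd3e in control replicates 1 to 4 and at 0.823, 1.03 and 1.04 in treated libraries. Every treated library was below every control on this measure, also without control replicate 3. Sox13 did the same, at 3.19 to 12.1 in controls and 0.0927 to 1.14 in treated libraries, while the other members overlapped. By limma on the log2 scale relative to the CD3 chains, a different measure, 98.1% of all tested genes were called lower. The share of all genes that separate per Cd3e was not computed. It is thus not known how far such a separation is particular to Trdc and Sox13.

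The share of Trdc in the sum of Trdc and Trac sets the delta chain against the alpha chain. It was 0.746%, 0.576%, 4.06% and 0.702% in control replicates 1 to 4 and 0.397%, 0.471% and 0.610% in the treated libraries. The groups overlapped through control replicate 2 and the third treated library. The means were 1.52% ± 1.69 (SD, n = 4) and 0.493% ± 0.108 (SD, n = 3), a difference of -1.03 percentage points (two-sided exact permutation p = 0.457 over 35 splits, whose smallest p is 0.0286). Without control replicate 3 the difference was -0.182 percentage points. As a log2 ratio of the same genes, each with a pseudocount of 1, the treated libraries were lower by -1.99 (two-sided exact permutation p = 0.0286). The pseudocount exceeds most Trdc values on this scale, where Trdc rose by 0.40 and Trac by 2.39. The ratio thus mostly carries the rise of Trac, whose groups did not overlap, and its p says little about Trdc.

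**Figure D4:**
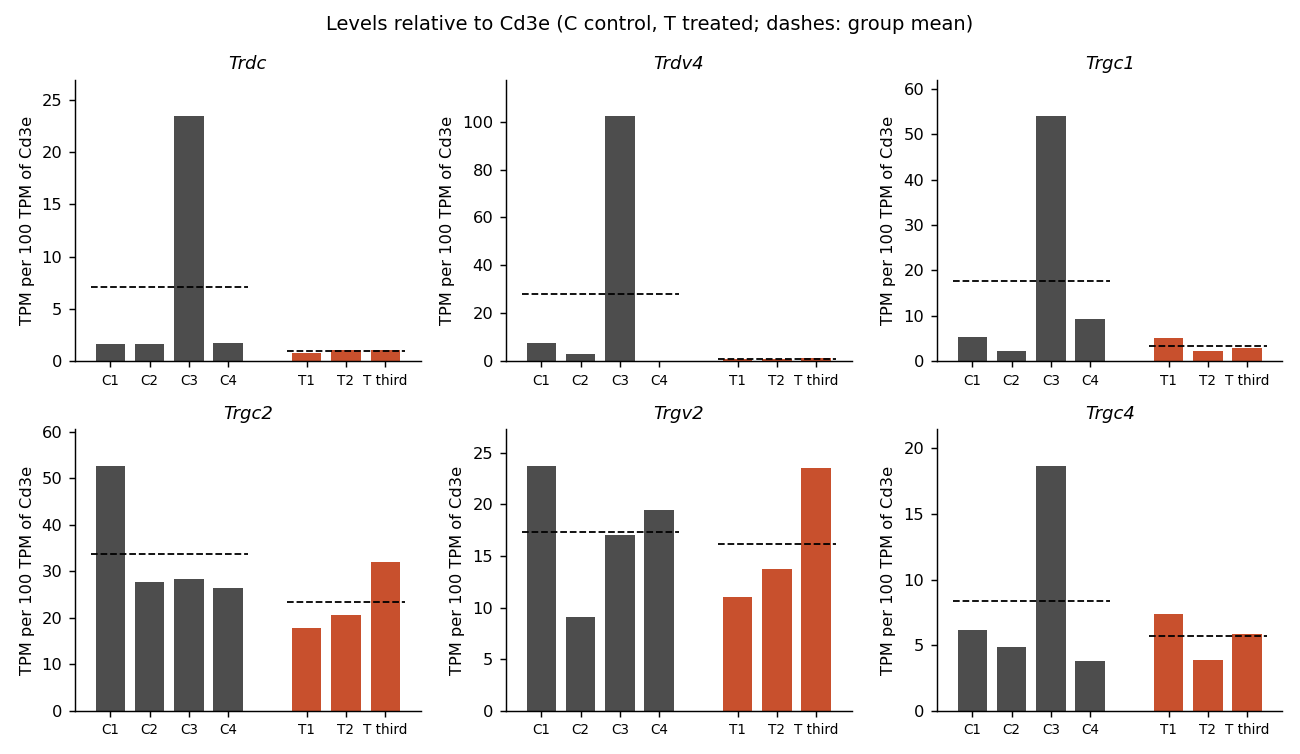
TPM per 100 TPM of Cd3e (vertical axis, a scale of its own in each panel) of 6 receptor genes in each control (C1 to C4, grey) and treated (T1, T2 and the last column, red) library, with dashes at the group means. Trdc, Trdv4, Trgc1 and Trgc4 are highest in control replicate 3, and the treated libraries lie inside the control range for Trgv2.

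The transcription factors and the cytokine receptor were close to 0 in every library. Sox13, an HMG-box factor of interleukin 17-producing gamma delta cells that other tissues also express, was at 0.51, 0.49, 0.66 and 0.37 in control replicates 1 to 4 and at 0.86, 0.16 and 0.30 in the treated libraries, summed over 5 transcript rows. Zbtb16 was at 0.14, 0.07, 0.27 and 0.15 in controls and at 0.08, 0.21 and 0.42 in treated libraries. Il23r, the chain that gives the interleukin 23 receptor its specificity, was at 0.03, 0.00, 0.12 and 0.03 in controls and at 0.03, 0.03 and 0.05 in treated libraries. The groups overlapped for all 3 genes, 0 of the 7 libraries reached a TPM of 1 for any of them, and none was tested. With no filter their log2 fold changes were -0.09, 0.09 and -0.01, with limma adjusted p values of 0.785, 0.654 and 0.913. Control replicate 3 held the highest Il23r value, on a scale where 0.01 TPM is the last digit given. With all 3 under 1 TPM, the name innate-like describes the genes chosen and not a population measured in these samples.

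Genes of the interleukin 17 programme did not move together. Of 14 genes listed, 8 were tested; Batf, an AP-1 family factor of activated lymphocytes, rose by 1.59 on the log2 scale, and Il1r1, an interleukin 1 receptor, fell by 0.75. The median log2 fold change was -0.17, against -0.24 over all tested genes. In the interleukin 23 pathway, 1 of 8 tested genes rose, the signal transducer Stat4 (2.18). Il12rb1, the shared receptor chain, had a log2 fold change of 0.83 (limma adjusted p = 0.0679), and Il12a, a subunit of interleukin 12, one of -0.50 (limma adjusted p = 0.236). The median of this list was 0.02. Over all tested genes 4.3% were called higher and 7.59% lower.

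Of 16 tested factors of gamma delta lineage choice and receptor strength 6 rose, and the others did not pass (median 0.55), where 4.3% of all tested genes were called higher. Lef1, an HMG-box factor that naive alpha beta cells also express, rose by 2.81 on the log2 scale, and Tox, a factor of T cell development and exhaustion, by 2.25. Relative to the CD3 chains Lef1 and Tox differed by -0.05 and -0.61 (limma adjusted p = 0.935 and 0.304). Bcl11b, a T lineage factor of both kinds of T cell, was under 1 TPM in all 4 controls and at 2.61 to 13.3 in treated libraries, higher by 2.18 on the log2 scale. It passed the filter through the treated libraries only, as 1 of the 6 genes that rose.

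Of 17 tested genes linked to NKT and MAIT cells 12 rose and 5 did not pass (median 1.88), and 1 of the 12, Slamf1, named for this reason, passed the filter through the treated libraries only. Il18r1, an interleukin 18 receptor chain, Nkg7, a granule protein, and the chemokine Xcl1 rose by 2.56, 2.92 and 2.50, and all are also made by CD8+ T cells. Of 15 tested surface and effector genes of gamma delta cells 9 rose and 3 fell (median 2.28). Klrk1, Ifng and Gzma rose by 2.72, 2.79 and 2.28, and 3 genes named after their values were seen fell: Areg fell by 0.93, Tmem176a fell by 0.97 and Tmem176b fell by 0.93 on the log2 scale. Areg, at 0.21 to 0.37 in treated libraries, passed the filter through the controls only. Over all tested genes 11.9% were called in either direction. The 4 CD3 chains and 5 of the 6 alpha beta receptor and co-receptor genes rose in the same libraries, and Cd4 did not pass (0.47, limma adjusted p = 0.25).

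Markers of natural killer cells and of innate lymphoid cells moved in the same libraries. Over all tested genes 4.3% were called higher and 7.59% lower. Of 6 tested natural killer genes 5 rose, Klre1, Eomes and Prf1 among them by 2.42, 2.54 and 2.23, the last 2 of which CD8+ T cells share. Relative to the CD3 chains Klre1, Eomes and Prf1, the genes of smallest p in this list, differed by -0.43, -0.31 and -0.63 (limma adjusted p = 0.464, 0.596 and 0.277). The other tested natural killer genes, named after their values were seen, were Klra7, Klra9 and Fcer1g. They differed by -1.18, -1.48 and -3.35 (limma adjusted p = 0.0516, 0.018 and 7.88e-09). Ncr1, a receptor of natural killer and some innate lymphoid cells, was below the filter at 0.21 to 0.55 in control and 0.67 to 1.12 in treated libraries, without overlap. Of 5 tested innate lymphoid genes 3 rose, Il7r, Id2 and Klrg1, and Kit fell by 0.93 (named after its value was seen). Klrg1, at 0.39 to 0.76 in controls and 2.31 to 7.32 in treated libraries, passed the filter through the treated libraries only, as did 1 of the 5 natural killer genes, Klra9. Of the 9 tested epithelial and mesothelial markers 7 were lower, among them Krt19, Upk1b and Cldn3 (log2 fold changes -1.68, -1.26 and -2.73), and of the 5 tested fibroblast markers 4 were, among them Col1a2 and Col3a1 (-1.61 and -0.84) and Dcn. Of 11 macrophage markers 2 fell, Apoe and Fcgr1, and C1qa did not pass (-0.86, limma adjusted p = 0.0712). Of 6 B cell and 4 neutrophil markers limma called 0 (1 B cell and 0 neutrophil genes at an unadjusted p under 0.05; medians 0.51 and -0.11). The part of these cells in the gamma gene values was not tested.

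Genes were also ranked by how closely their log2 profile, centred on its own mean, followed that of a member over the 7 libraries. For Trdc the closest of 12340 genes were Sh3bgrl3, Cyp4v3 and Slc52a3, with mean absolute differences of 0.06, 0.07 and 0.07 on the log2 scale, where Trdc itself spanned 1.21. For Trgc2, which spanned 3.85, they were Coch, Tmod1 and Eomes, at 0.19, 0.20 and 0.21; this gene was added to the ranking after its values were seen. The profiles of Sox13, Zbtb16 and Il23r spanned only 0.68, 0.41 and 0.16. The nearest genes were Shbg, Bbs7 and Stard6 for Sox13, Tert, Trdmt1 and Tagln for Zbtb16, and Myo1a, Pde10a and Sord for Il23r, which spanned 0.20 (Pde10a) to 0.67 (Bbs7) on the same scale.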

How the data were processed

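Messenger RNA of 4 control and 3 treated libraries was measured after poly(A) selection, per the labels' protocols. The authors deposited TPM values for 149132 transcript rows, all but 1001 with a gene symbol. Reads were handled with HISAT2, StringTie and fastp on build mm39, per the submitters' processing notes, which give these tools no role. TPM carries no depth. The supplied reference is of an earlier build, so no coordinates are given.

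Columns were matched to samples by name. One treated column carries a number that no treated sample has and was used without one, as the third treated library; there were 0 other columns of values. The 1001 rows without a symbol held 0.307% to 0.618% of TPM and were left out. TPM was summed per symbol. The 14967 genes that reached 1 TPM in 3 or more of the 7 libraries were compared on log2(TPM + 1) in R 4.3.3 with limma 3.58.1 (variance trend, Benjamini-Hochberg over all tested genes, called under 0.05), tested on simulated data. Relative to the CD3 chains, 14964 genes were fitted likewise, leaving out the chains.

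The members and gene lists were chosen with earlier results of these data known. All members were named, with 11 T cell, interleukin 17 and natural killer genes, of which 1 is not reported here, the 3 genes of smallest p per list, the 3 dual or other segments of highest mean and the 3 nearest profiles of 4 members. Alternatives changed the pseudocount, filter, scaling, variance model and block, and left out each library. The fits on replicates 1 and 2 alone without a block, and without both control replicate 3 and the third treated library, were added after the data were seen.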

Additional observations from a re-analysis of the deposited data

Results flagged for a closer look

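Among the 4 control libraries, a value was singled out when its gap to the nearest other control was too large a part of the controls' whole range by Dixon's test; chance singles out about 1 in 20 groups, and 33 values were examined, many of which share Cd3e or the same library. Control replicate 3 stood apart in TPM for Trdc (1.28), Trgv6 (3.91) and Il17a (2.94). It stood apart per 100 TPM of Cd3e for Trdc (23.4), Trgc1 (53.9), Trgc4 (18.6), Trdv4 (102), Sox13 (12.1), Zbtb16 (4.94) and Il23r (2.19), measures whose denominator was lowest in that library. Its Trdc share of Trdc plus Trac was 4.06%. Control replicate 1 stood apart for Trgc2, at 52.6 TPM per 100 TPM of Cd3e.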

How the results depend on the processing

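The 3 members called higher (Trgc2, Trgv2, Trgc4) were 3 in most alternatives, 0 with no filter on low values, 2 when 5 TPM were required, where only Trgc2 and Trgv2 were tested, and 4 without control replicate 3, where Trgc1 joined them, also when the third treated library was left out as well. The number of members called lower was 0 throughout, and none of the 4 tested members changed direction in these alternatives. Of all genes, 643 were called higher and 1136 lower (36.1% higher). Called higher were 3 with no filter, 1237 after rescaling without mitochondrial genes and pseudogenes and 1306 with median-of-ratios scaling, where 955 were lower (57.8% higher) and the median log2 fold change of all genes moved from -0.24 to -0.00. Called lower were 4 with no filter and 277 without both control replicate 3 and the third treated library. Leaving out 1 library gave 433 to 834 genes higher and 531 to 2910 lower, the last without treated replicate 1. Relative to the CD3 chains, 1 member was called lower, against 3 with a pseudocount of 5. With no filter it was 6 of 9, where Trdc, Trdv4, Sox13, Zbtb16 and Il23r joined Trgc1. In that setting 29383 of 29684 genes were called lower, with a median log2 difference of -2.90. On this scale a gene near 0 in every library falls by about the rise of the CD3 chains. The number was 0 when 5 TPM were required, which left Trgc1 untested. It was 2 after rescaling without mitochondrial genes, where Trdv4 passed the filter. It was also 2 with median-of-ratios scaling and 2 without the variance trend, both with Trgc4. The cause of the other changes was not tested. The Trdc share differed by -1.03 percentage points, by -1.34 to -0.182 leaving out 1 library, when 4 against 2 or 3 against 3 libraries cannot reach p = 0.05, and by -1.99 as a log2 ratio (exact permutation p = 0.0286).

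Replicate numbers 1 and 2 occur in both groups without being said to pair samples, and the deviations of same-numbered libraries correlated at -0.113 across genes. With the replicate block on these 4 libraries 574 genes were higher and 138 lower, 3 members were higher (Trgc1, Trgc4 and Trgv2; Trgc2 at limma adjusted p = 0.0652) and 0 were lower relative to the CD3 chains. The same 4 libraries without a block gave 487 and 126 genes, 2 members higher and 0 lower.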
